A study of Mus musculus with 12 samples.

Results

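Reep5 and 9 further genes that encode proteins of the endoplasmic reticulum (ER) membrane were followed through plasma cell differentiation in the presence and absence of Mzb1. The 10 genes were taken by symbol from the 24325 symbols of the deposited tables. They are Reep5, Reep3 and Reep4 of the REEP family, the reticulons Rtn3 and Rtn4, the atlastins Atl2 and Atl3, Arl6ip1, and the sheet proteins Ckap4 and Rrbp1. All 10 reached 1 FPKM in at least 2 libraries and were tested, as were 11069 genes in all. The set was chosen by gene name with earlier results of these data known, and which measured values it was selected on is not recorded. The values and calls below therefore describe these genes and are not independent support for any pattern among them.

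The cells were splenic B cells of C57BL/6 mice, taken with anti-B220 beads and kept for 4 days in medium with fetal calf serum and 25 µg/ml lipopolysaccharide, a bacterial cell wall product that drives B cells to divide and secrete antibody. All mice carried Prdm1+/gfp, so that every group, wild type included, had 1 Prdm1 allele with the green fluorescent protein (GFP) insertion that reports Blimp1. They were either Mzb1+/+ (wt) or Mzb1-/- (ko). By flow cytometry the cultured cells were sorted into activated B cells (ActB, CD138- and GFP-), pre-plasmablasts (PrePB, CD138- and GFP+) and plasmablasts (PB, CD138+ and GFP+). Each of the 6 groups had 2 libraries, 12 in all, of polyadenylated RNA. The labels do not say whether the 2 libraries of a group came from separate animals, so p-values measure only the spread between these libraries. Values are FPKM, fragments normalized to transcript length and to the size of the library, which can be compared between genes per length.

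The ER is one continuous membrane that forms flat sheets, where ribosomes dock, and curved tubules. Reticulons, REEP proteins and Arl6ip1 hold hairpins in the outer leaflet and bend the membrane into tubules and sheet edges. Atlastins are GTPases that fuse tubules into a network. Ckap4 (also called CLIMP-63) spans the lumen and sets the spacing of sheets, and Rrbp1 (p180) binds ribosomes on the rough ER. Plasma cells are known for stacked sheets of rough ER, in which antibodies are made.

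The regulator Xbp1, which drives ER growth in plasma cells, binds elements that hold the letters CCACG. To show these letters beside genes that moved unequally, the 250 bases upstream of the annotated start are shown for Ckap4, Atl2 and Rtn3, which rose, and for Atl3, a close relative of Atl2 that did not pass the test. They come from the RefSeq promoter table (build GRCm38.p6), which held 7 of the 10 genes. They are given 5′ to 3′ along the gene, at chr10:84533889-84534138 (minus strand) for Ckap4, chr17:79896124-79896373 (minus) for Atl2, chr19:7483292-7483541 (minus) for Rtn3 and chr19:7494188-7494437 (plus) for Atl3. Capitals mark CCACG or its reverse complement CGTGG. Rrbp1, which also rose but held neither, is not shown. Rtn4, which held a match at 1 of its 3 starts and was not called in wt, is not shown either.
Ckap4: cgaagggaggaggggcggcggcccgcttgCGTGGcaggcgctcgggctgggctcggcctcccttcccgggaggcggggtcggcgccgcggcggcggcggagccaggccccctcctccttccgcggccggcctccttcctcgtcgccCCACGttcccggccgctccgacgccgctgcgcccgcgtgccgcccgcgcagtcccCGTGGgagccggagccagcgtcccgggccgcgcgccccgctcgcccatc
Atl2: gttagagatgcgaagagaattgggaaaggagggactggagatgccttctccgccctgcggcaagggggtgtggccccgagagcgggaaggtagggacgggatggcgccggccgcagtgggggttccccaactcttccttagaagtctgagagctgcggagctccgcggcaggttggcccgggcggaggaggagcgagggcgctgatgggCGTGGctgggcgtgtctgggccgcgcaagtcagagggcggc
Rtn3: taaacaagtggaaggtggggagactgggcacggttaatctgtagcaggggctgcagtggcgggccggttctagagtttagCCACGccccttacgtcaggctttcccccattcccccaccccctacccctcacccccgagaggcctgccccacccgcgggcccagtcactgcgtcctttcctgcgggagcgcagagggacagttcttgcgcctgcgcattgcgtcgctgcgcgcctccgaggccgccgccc
Atl3: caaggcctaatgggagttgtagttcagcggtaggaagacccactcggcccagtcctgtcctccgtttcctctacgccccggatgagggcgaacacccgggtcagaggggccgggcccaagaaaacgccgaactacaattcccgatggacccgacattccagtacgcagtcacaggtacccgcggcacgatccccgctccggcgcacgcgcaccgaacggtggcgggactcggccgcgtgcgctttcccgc

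Ckap4 held 3 matches, at 221, 104 and 49 bases before the start, Atl2 held 1 at 41 bases and Rtn3 held 1 at 170 bases. Atl3, Rrbp1 and Arl6ip1 held 0, and 1 of the 3 annotated starts of Rtn4 held 1. Rrbp1 rose without a match, and Rtn4 was not called between wt ActB and wt PB. The genes shown above therefore do not stand for all 7, and a link between matches and rise was not tested. Of 32841 promoters of the same length, 28.4% had at least 1 match on either strand and 2.13% had 3 or more. The full ER stress element, searched on both strands as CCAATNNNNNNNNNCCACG, was in 0 of the 7 genes and in 0.113% of all promoters. A match is a description of the letters in this window and not a binding site.

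The libraries summed to between 418966 and 581262 FPKM, and their sequencing depth is unknown. Mzb1 was at 845 and 1016 FPKM in wt ActB, 10066 and 9926 in wt PrePB, and 15434 and 17359 in wt PB. In ko libraries it was at 273 and 289, 899 and 871, and 1008 and 926 FPKM, below every wt library of the same population. Between 2 libraries, the commonest ratio of values below 0.5 FPKM (within 0.002 on the log2 scale) was shared by 9.07% to 20.5% of genes among 8 libraries, by 7.70% to 16.6% among the other 4, and by 2.13% to 4.89% across them. The 2 sets were formed by clustering the libraries on this same measure, so higher sharing within than across them is built in. They are called fragment patterns below, the 8 being the first. The 4 were replicate 2 of ko ActB, replicate 2 of ko PrePB and both ko PB libraries. Xist was between 33.3 and 81.4 FPKM in wt replicate 1 of each population and at most 0.389 elsewhere, every ko library included. The sex of the donors thus differed between the 2 wt libraries of each population, which did not share 1 donor. Sex was also not balanced between wt and ko, and only wt replicate 2 of each population matched the ko libraries in low Xist. Summed FPKM of 6 plasma cell markers, among them Sdc1 (CD138), was 268 to 293 in wt ActB, 10780 to 11715 in wt PrePB and 22005 to 25764 in wt PB. The T cell markers summed to at most 9.33 FPKM in any library and the macrophage and granulocyte markers to at most 28.3. These sums were not even across populations. The macrophage and granulocyte sum was 7.89 to 13.7 in wt ActB, 12.7 to 28.3 in ko ActB and at most 1.60 in PrePB and PB. The T cell sum was 0.421 to 0.669 in wt ActB and 3.50 to 4.83 in wt PB.

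The first question was how these genes changed as wt B cells became plasmablasts. RNA for Ckap4 and Atl2 rose most, followed by Reep5 and Rrbp1, then Rtn3 and Reep4, Reep3 fell, and Rtn4, Atl3 and Arl6ip1 did not pass the test. Between wt ActB and wt PB, limma called 7 of the 10 genes at a Benjamini-Hochberg adjusted p below 0.05, 6 higher and 1 lower. Of all 11069 genes tested, 62% were called (31% higher and 31% lower), so the share of genes called does not set these 10 apart. Their median log2 change on the FPKM + 1 scale was 0.75, against -0.01 for all genes. With libraries rescaled to equal totals the median of all genes moved to -0.37, and the split of calls from 3432 higher and 3432 lower to 2066 higher and 5487 lower. Under that rescaling 6 of the 10 genes were still called higher, and their median was 0.36. From ko ActB to ko PB, 8 of the 10 genes were called (7 higher, 1 lower), where 62.2% of all genes were called (31.2% higher and 30.9% lower).

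Ckap4, the sheet spacer, had the widest range of the 10 genes. It was at 11.7 and 13.9 FPKM in wt ActB, 171 and 196 in wt PrePB, and 310 and 361 in wt PB. The 3 populations did not overlap, and Ckap4 went from the lowest of the 10 genes in wt ActB to the highest in wt PB. Its mean rose 14.3-fold from ActB to PrePB and 26.2-fold from ActB to PB (log2 change 4.61, SE 0.16, limma adjusted p = 3.93e-09). In ko cells the libraries had 7.12 and 10.2, 121 and 135, and 225 and 281 FPKM, a 29.2-fold rise from ActB to PB (4.73, SE 0.16).

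Rrbp1, the ribosome receptor of the rough ER, was already abundant in activated cells. Its libraries had 94.4 and 90.0 FPKM in wt ActB, 231 and 274 in wt PrePB, and 245 and 273 in wt PB. PrePB and PB libraries overlapped, and both stood above ActB. The rise from ActB to PrePB was 2.74-fold (log2 change 1.44, SE 0.13), and the log2 change from PrePB to PB was 0.04 (SE 0.13). Rrbp1 had 74.2 and 86.4 FPKM in ko ActB, 230 and 258 in ko PrePB, and 225 and 287 in ko PB, with the same 2 upper groups overlapping.

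Between the atlastins, Atl2 rose and Atl3 did not pass the test. Atl2 had 15.1 and 15.8 FPKM in wt ActB, 49.7 and 54.4 in wt PrePB, and 61.4 and 67.2 in wt PB, with no overlap between populations. That was a 3.36-fold rise to PrePB and a 4.16-fold rise to PB (log2 change 1.99, SE 0.09, adjusted p = 1.33e-08). Atl3 had 16.9 and 17.5, 17.4 and 21.1, and 18.7 and 19.6 FPKM in the same order. Its log2 change from ActB to PB was 0.15 (SE 0.10, 95% interval -0.08 to 0.38). In ko cells Atl2 had 13.6 and 14.8, 45.5 and 48.0, and 59.4 and 63.2 FPKM, and Atl3 lay between 16.2 and 20.2 FPKM in all 6 libraries. Atl3 and Rtn3 are next to each other on chromosome 19 in opposite orientation.

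Of the reticulons, which bend tubules, Rtn3 rose in both genotypes. Rtn3 had 72.5 and 73.5 FPKM in wt ActB, 126 and 117 in wt PrePB, and 134 and 130 in wt PB, a 1.81-fold rise from ActB to PB (log2 change 0.85, SE 0.08, adjusted p = 3.10e-06). Rtn4, also known as Nogo, had 30.2 and 31.9, 35.8 and 33.2, and 35.0 and 35.1 FPKM. Its log2 change from ActB to PB was 0.17 in wt (SE 0.08, adjusted p = 0.0767) and 0.22 in ko (SE 0.08, adjusted p = 0.0308), and the difference between them was not called. Rescaling to equal totals turned the values of Rtn4 to -0.22 in wt and -0.07 in ko, neither called. With equal totals without small RNA genes it was -0.23 in wt (limma adjusted p = 0.0154) and was called lower, and with no filter on low genes the wt rise of 0.17 was called. The ko rise was not called with the compared groups alone (0.22), with the fragment pattern as a term (0.21) or without wt replicate 1 in all populations (0.22). Without ko ActB replicate 1, ko ActB replicate 2 or ko PB replicate 2 the ko value was 0.19, 0.25 and 0.16 and was no longer called. Rtn3 in ko cells had 72.0 and 71.3, 111 and 113, and 120 and 134 FPKM.

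The 3 REEP genes took 3 courses. Reep5, which bends tubules, had 42.5 and 53.2 FPKM in wt ActB, 106 and 97.4 in wt PrePB, and 140 and 136 in wt PB. These groups did not overlap, and the mean was 2.88-fold higher in PB than in ActB (log2 change 1.52, SE 0.10). Reep4, known for clearing ER from chromatin in mitosis, rose from 42.8 and 44.0 FPKM through 61.5 and 61.1 to 69.9 and 67.9, a 1.59-fold rise (0.66, SE 0.08). Reep3, which shares that role with Reep4, fell from 17.2 and 17.5 FPKM to 10.9 and 9.90 and then had 9.51 and 9.08, which was 0.536 times the ActB mean (-0.83, SE 0.09). In ko cells Reep3 had 15.9 and 17.0, 9.90 and 10.1, and 9.38 and 10.5 FPKM, and Reep4 had 40.0 and 44.8, 60.0 and 61.7, and 73.0 and 67.8. The annotated span of Reep3 overlaps Jmjd1c, that of Rtn3 overlaps 2700081O15Rik and that of Rtn4 overlaps Eml6, and whether fragments were assigned by strand is not given in the sources used here.

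Arl6ip1, a hairpin protein that binds atlastins and reticulons, was the most abundant of the 10 genes in wt ActB. It had 142 and 158 FPKM there, 165 and 162 in wt PrePB, and 137 and 152 in wt PB. ActB and PB libraries overlapped, and the log2 change between them was -0.06 (SE 0.10, adjusted p = 0.628). Rescaled to equal totals, which lowered the median of all genes, it was -0.46 and was called.

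**Figure D1:**
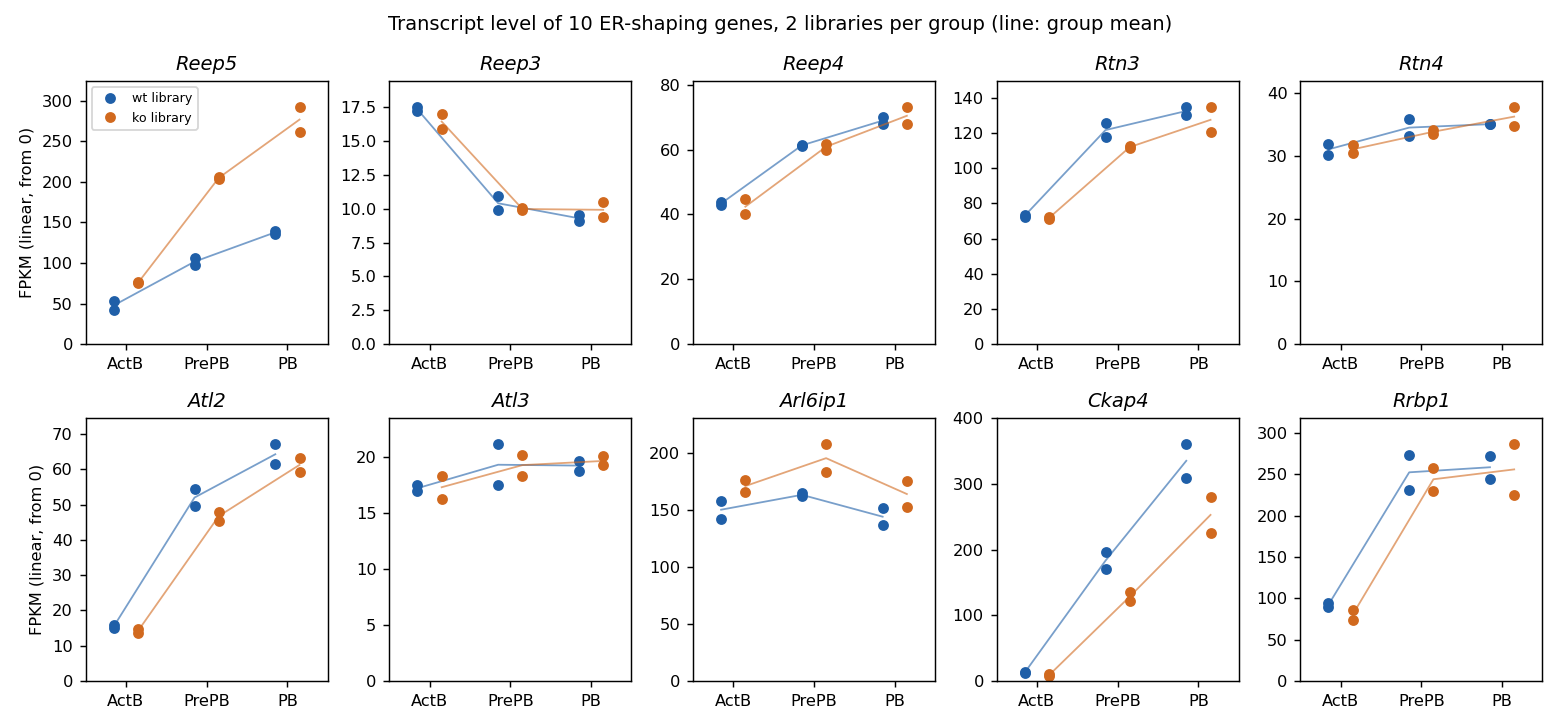
FPKM (linear axis from 0, a separate scale for each gene) of the 10 genes in the 3 sorted populations; points are libraries, blue for wt and orange for ko, and lines join group means. Ckap4 climbs from 11.7 and 13.9 FPKM in wt ActB to 310 and 361 in wt PB, Reep3 falls, Atl3 stays between 16.2 and 21.1 FPKM, and the ko points of Reep5 lie above the wt points in each population.

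Most of the change lay in the first step, from ActB to PrePB, in which cells had turned on the Blimp1 reporter but not CD138. In wt, 7 of the 10 genes were called there (6 higher, 1 lower), where 53.4% of all genes were called (27.1% higher and 26.3% lower). The genes called higher were Ckap4 (log2 change 3.74), Atl2 (1.69), Rrbp1 (1.44), Reep5 (1.08), Rtn3 (0.73) and Reep4 (0.49), and Reep3 was called lower (-0.69). The call of Reep4 was lost with rescaling to equal totals, at 0.22. In ko the same 7 genes were called in the same directions, where 54.2% of all genes were called (27.1% higher and 27% lower), with Ckap4 at 3.76, Atl2 at 1.65, Rrbp1 at 1.59, Reep5 at 1.43, Rtn3 at 0.64, Reep4 at 0.51 and Reep3 at -0.67.

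From PrePB to PB the changes were smaller. In wt, Ckap4 rose 1.83-fold (log2 change 0.87, SE 0.16) and Reep5 1.36-fold (0.44, SE 0.10), 2 of the 10 genes, where 8.73% of all genes were called and 5.02% were called higher. Atl2 had a log2 change of 0.30 (SE 0.09, adjusted p = 0.0549). In ko, Ckap4 (0.97), Reep5 (0.43) and Atl2 (0.38) rose, 3 of the 10 genes, where 10.8% of all genes were called and 6.57% were called higher. These calls depended on single libraries. The wt call of Reep5 was lost without any of its 4 libraries, with log2 changes of 0.38 to 0.50, and that of Ckap4 without wt PrePB replicate 1 (0.77) or wt PB replicate 2 (0.76). In ko, Reep5 was not called without ko PrePB replicate 1 (0.44), ko PrePB replicate 2 (0.42) or ko PB replicate 2 (0.35), and Atl2 without the same libraries (0.35, 0.42 and 0.34). Ckap4 in ko was not called without ko PB replicate 2 (0.81).

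**Figure D2:**
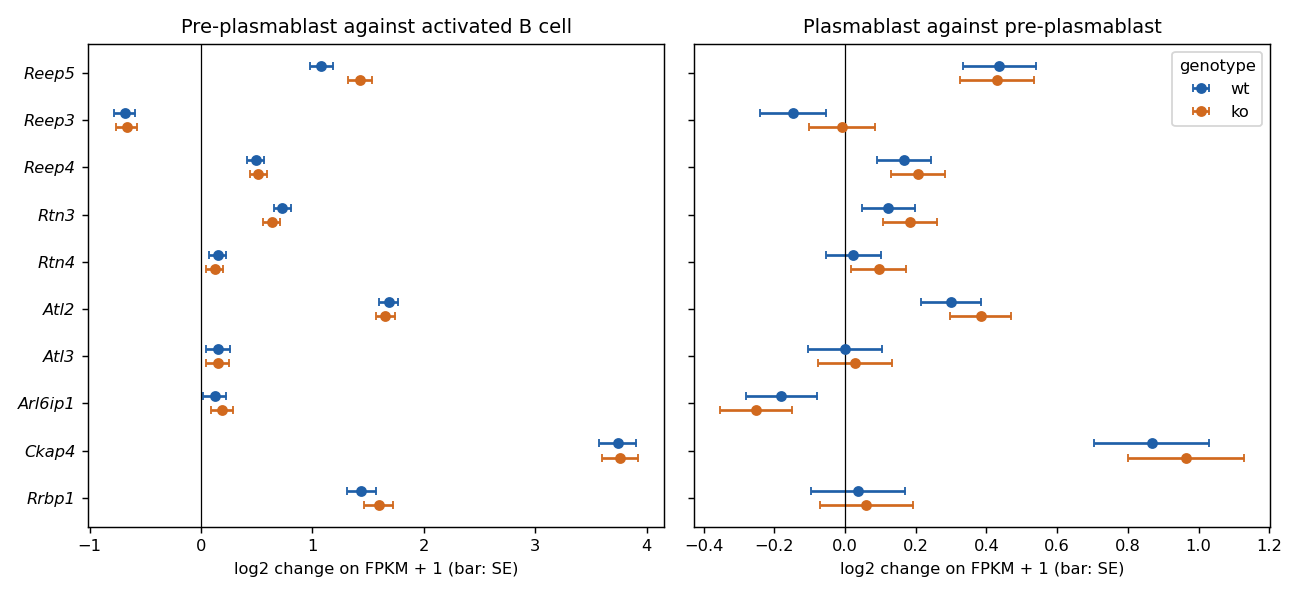
Log2 change on the FPKM + 1 scale of each gene between successive populations (x axis; error bars are the limma SE), in wt (blue) and ko (orange), with a different x scale in each panel. Ckap4 stands at 3.74 and 3.76 in the first step and at 0.87 and 0.97 in the second, and Reep3 lies at -0.69 and -0.67 in the first step.

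The order of the levels changed with the populations. In wt ActB it ran Arl6ip1 (mean 150 FPKM), Rrbp1 (92.2), Rtn3 (73.0), Reep5 (47.8), Reep4 (43.4), Rtn4 (31.0), Reep3 (17.3), Atl3 (17.2), Atl2 (15.5) and Ckap4 (12.8). Neighbours whose libraries overlapped were Reep5 with Reep4 and Reep3 with Atl3. In wt PB it ran Ckap4 (335 FPKM), Rrbp1 (259), Arl6ip1 (144), Reep5 (138), Rtn3 (132), Reep4 (68.9), Atl2 (64.3), Rtn4 (35.0), Atl3 (19.2) and Reep3 (9.29), and Arl6ip1 overlapped Reep5. In ko PB Reep5 had the highest mean (277 FPKM), and its libraries overlapped those of Rrbp1 (256) and Ckap4 (253).

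Summed over the 10 genes, wt libraries held 501 ± 21.2 FPKM in ActB (SD, n = 2), 1000 ± 37.1 in PrePB and 1205 ± 63.6 in PB. The ko sums were 529 ± 7.87, 1056 ± 12.5 and 1275 ± 100. Ckap4 made up 2.55% of the sum in wt ActB, 18.3% in wt PrePB and 27.8% in wt PB, as means of 2 libraries. The share of Arl6ip1 went from 30.0% through 16.4% to between 11.8% and 12.1%. Reep5 held 9.53%, 10.2% and 11.5% of the sum in wt and 14.3%, 19.4% and 21.7% in ko, and Ckap4 held 19.8% in ko PB. These shares are of RNA and were not tested.

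**Figure D3:**
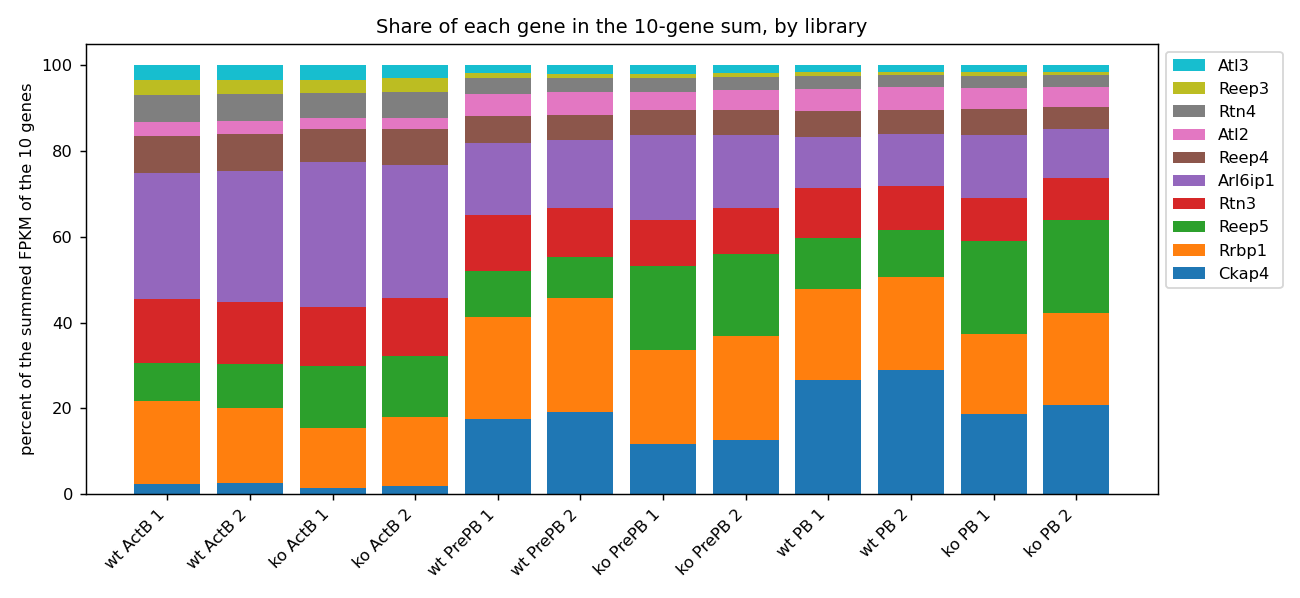
Share of each gene in the summed FPKM of the 10 genes (y axis, percent), with 1 stacked bar per library, ordered by population and genotype. The Ckap4 segment at the base widens from 2.41% to 2.69% in wt ActB to between 26.7% and 28.9% in wt PB, and the Reep5 segment is wider in ko than in wt libraries of each population.

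Ratios within a library do not depend on how libraries were scaled. Atl2 over Atl3 was 0.896 and 0.905 in wt ActB, 2.85 and 2.58 in wt PrePB, and 3.28 and 3.42 in wt PB. Reep4 over Reep3 went from 2.49 and 2.52 through 5.64 and 6.17 to 7.35 and 7.49. Rtn3 over Rtn4 was at most 2.40 in the 4 ActB libraries and at least 3.25 in the other 8. For these 3 pairs of related genes, ActB libraries did not overlap the later populations in either genotype. A ratio shows unequal change and not which gene moved.

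**Figure D4:**
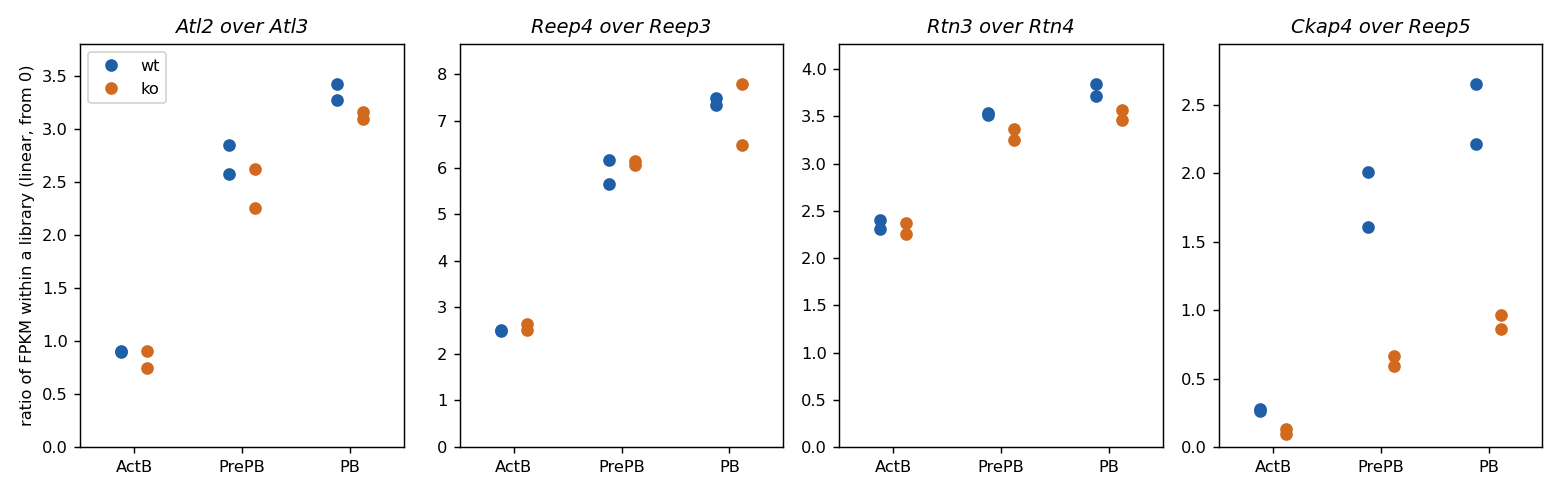
Ratio of FPKM within each library (y axis, linear from 0) for 3 pairs of related genes and for Ckap4 over Reep5, by population; points are libraries, wt in blue and ko in orange. The first 3 ratios rise between ActB and PrePB in both genotypes, and Ckap4 over Reep5 is lower in ko than in wt libraries at each stage (0.860 and 0.961 against 2.22 and 2.65 in PB).

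The second question was what loss of Mzb1, an ER protein that assists antibody folding, did to these genes within each population. Reep5 RNA was higher in ko PrePB and ko PB, by about as much in both, and in ko ActB it lay between wt ActB and wt PrePB without passing the test. Ckap4 had lower values in ko at each stage without passing the test, and the other genes differed less. Reep5 had 75.1 and 76.2 FPKM in ko ActB against 42.5 and 53.2 in wt, 206 and 204 against 106 and 97.4 in PrePB, and 262 and 292 against 140 and 136 in PB. Wt and ko libraries did not overlap in any population, and the ko PrePB libraries lay above the wt PB libraries. Wt replicate 2, with low Xist as in every ko library, had 53.2 FPKM in ActB, 97.4 in PrePB and 136 in PB. The part of donor sex in these differences was not tested. The means differed 1.58-fold, 2.02-fold and 2.01-fold, with log2 changes of 0.66, 1.00 and 1.00 (SE 0.10 each). Reep5 passed the threshold in PrePB and in PB and was not called in ActB.

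Among the 10 genes limma called Reep5 alone in PrePB and in PB, and 0 in ActB. Of all genes tested, 0.0542% were called in ActB, 0.117% in PrePB and 0.407% in PB. An unadjusted p below 0.05 was found for 2 of the 10 genes in ActB (Reep5 and Ckap4), 3 in PrePB (with Arl6ip1) and 2 in PB (Reep5 and Ckap4), where 8.07%, 15% and 16% of all genes had one. Libraries of wt and ko did not overlap for 7 of the 10 genes in ActB, 5 in PrePB and 3 in PB, where this held for 36%, 47.1% and 49.3% of all genes. Without wt PrePB replicate 2 the log2 change of Reep5 in PrePB was 0.94 and was not called, and without wt ActB replicate 2 that in ActB was 0.82 and was called. In PB the fragment pattern and the genotype cannot be told apart from the libraries alone. A term for the pattern is set only by ko ActB and ko PrePB, the groups that hold both patterns, and is carried over to PB. With that term the log2 change of Reep5 in PB was 0.99 and was not called, which cannot separate pattern from genotype there. Within the first pattern the wt PrePB libraries had 106 and 97.4 FPKM and the 1 ko library 206, and the change was not called.

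Ckap4 went the other way without passing the test. It had 7.12 and 10.2 FPKM in ko ActB against 11.7 and 13.9 in wt, 121 and 135 against 171 and 196 in PrePB, and 225 and 281 against 310 and 361 in PB. Every ko library lay below every wt library of its population. The log2 changes were -0.53, -0.51 and -0.41 (SE 0.16 each), with limma adjusted p = 0.458, 0.207 and 0.263. Libraries lower in ko with no overlap were found for 17.7%, 21.4% and 21.2% of all genes. Arl6ip1 had 177 and 166 FPKM in ko ActB, 208 and 183 in ko PrePB, and 176 and 153 in ko PB, each above the wt libraries. In PB the nearest libraries were at 152.9 FPKM in ko and 151.5 in wt. Its log2 changes of 0.19, 0.26 and 0.18 (SE 0.10 each) were not called. Libraries higher in ko with no overlap were found for 18.3%, 25.7% and 28% of all genes. The other 7 genes had log2 changes between -0.20 (Rrbp1 in ActB) and 0.08 (Reep3 in PB). For Rtn4, Reep4 and Atl3 wt and ko overlapped in all 3 populations.

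**Figure D5:**
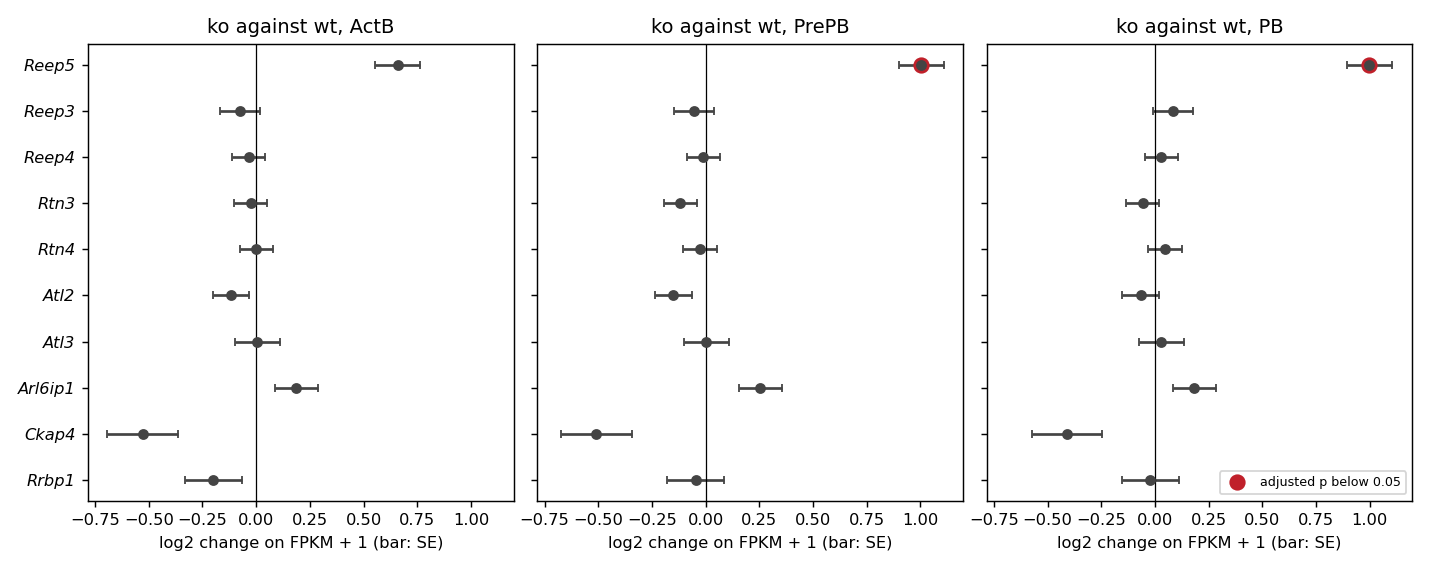
Log2 change of ko against wt on the FPKM + 1 scale (x axis, the same in each panel; error bars are the limma SE) for the 10 genes in ActB, PrePB and PB; red marks an adjusted p below 0.05. Reep5 stands at 0.66, 1.00 and 1.00, Ckap4 at -0.53, -0.51 and -0.41, and the other genes lie between -0.20 and 0.26.

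Summed FPKM of differentiation markers also differed between genotypes in some populations, while Pax5 was the only single marker called. The 6 B cell markers summed to 2877 to 2955 FPKM in wt PrePB and 3546 to 3736 in ko PrePB, and to 1959 to 2111 in wt PB and 2485 to 2497 in ko PB. In ActB they summed to 3239 to 4017 in wt and 3738 to 4214 in ko. Of the 6, limma called 1 in PB, Pax5, which keeps B cell identity (log2 change 1.17, higher in ko). It called 0 in ActB and PrePB. An unadjusted p below 0.05 was found for 1, 3 and 3 of the 6 markers in ActB, PrePB and PB. Of all genes, 8.07%, 15% and 16% had one. The 6 plasma cell markers summed to 10780 to 11715 FPKM in wt PrePB and 8610 to 8667 in ko PrePB, and in PB the ranges of wt and ko overlapped. Of these 6, 0 were called in any population and 2 had an unadjusted p below 0.05 in each, against the shares of all genes just given. In ActB the plasma cell markers summed to 268 to 293 FPKM in wt and 191 to 223 in ko, without overlap. Single markers went different ways. In ActB, PrePB and PB mean Prdm1 was 20.4, 250 and 222 FPKM in wt and 22.6, 298 and 245 in ko. Mean Xbp1 was 102, 1574 and 2441 in wt and 81.6, 1356 and 2022 in ko. The median log2 change of the 6 was 0.002, -0.27 and -0.12, so the sums do not describe every marker. In these sorted bulk samples, fewer differentiated cells and less RNA per cell cannot be told apart, and the part of these markers in the values of Reep5 and Ckap4 was not tested.

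Whether the genotype difference itself changed between populations was tested as an interaction. The difference of Reep5 was larger by 0.35 (SE 0.15) on the log2 scale in PrePB than in ActB, by 0.34 in PB than in ActB, and changed by -0.01 between PrePB and PB. None of these was called by limma. Over the 3 interactions 0 of the 10 genes were called, and Reep5 had an unadjusted p of 0.0391, 0.0425 and 0.963. Of all genes, 0.0361%, 0.0452% and 0% were called in the same order, and 395, 459 and 272 genes had an unadjusted p below 0.05.

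Reep5 and the targeted gene Mzb1 lie on the same chromosome. In the RefSeq gene order of build GRCm38, 24 symbols of the files lie between them. Of these, 19 were tested in ko against wt, and 0 were called in each of the 3 populations. Of all genes tested, 0.0542% were called in ActB, 0.117% in PrePB and 0.407% in PB, so 0 of 19 is near that share. Among the 10 listed genes on each side of Reep5, 12 were tested and 1 was called, Stard4, a sterol carrier, which was higher in ko PB (log2 change 0.67). Among the 10 on each side of Mzb1, 14 were tested and 0 were called. Their log2 changes ran from -0.99 (Snora74a) to 0.59 (Prob1) in ActB and from -0.69 (Nrg2) to 1.19 (Prob1) in PrePB. In PB they ran from -1.17 (Snora74a) to 0.98 (Prob1). An effect of the Mzb1 locus on its neighbours was not tested.

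Over the 12 libraries, the genes most like Reep5 in log2(FPKM + 1) were Atp9a, Ints3, Mxd4 and Ap5s1 (Pearson r = 0.97 each) and Cdkn1b (0.96). The most unlike were Rnps1 (-0.99), Hspd1 (-0.98) and Ikbkap (-0.98). Atp9a, a phospholipid flippase, had 3.38 FPKM in wt PB and 24.2 in ko PB, and Cdkn1b, the cell cycle inhibitor p27, had 33.0 and 42.5. Hspd1, the mitochondrial chaperonin, had 36.0 and 24.3. For Ckap4 the most like were Eaf2, Atl2, Pik3cg, Sec11c and Copb2 (r = 1.00 each at 2 decimals), and the most unlike Mpeg1, Tespa1 and Runx3 (-0.99 each). Among the 10 genes, Atl2 and Ckap4 were the most alike (0.998) and Reep3 and Atl2 the most unlike (-0.977). Atl2 and Arl6ip1 had the r nearest to 0 (0.00193). The points share populations, genotypes and library scaling, so these coefficients describe the same differences as above.

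Of 15 further ER-shaping genes tested, 7 rose and 1 fell from wt ActB to wt PB, where 62% of all genes were called, with a median log2 change of 0.22 against -0.01 for all genes. Ktn1, a kinectin of ER sheets, rose from 17.3 to 38.8 FPKM, 2.25-fold, Tmcc3 from 7.23 to 15.3 (log2 change 0.99) and Tmcc1 from 4.03 to 8.87 (0.97). Rab10, a GTPase of growing tubules, fell from 54.0 to 33.7 FPKM (-0.66). With rescaling to equal totals 4 rose and 5 fell, and the median was -0.15 against -0.37 for all genes. All 11 genes of the translocon and its glycosylation partners rose (median 2.57), with Ssr4 at 3.53, as did all 13 genes of the unfolded protein response (2.86), with Xbp1 at 4.56. Both counts were the same with each of the 3 other scalings. In ko against wt, limma called 0 genes of these 3 lists in any population. At an unadjusted p below 0.05 there were 2, 0 and 1 of the ER-shaping genes in ActB, PrePB and PB, 3, 2 and 1 of the translocon genes, and 4, 3 and 3 of the unfolded protein response genes, where 8.07%, 15% and 16% of all genes had one.

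Receptors that deliver ER to lysosomes, a process called ER-phagy, mostly rose. Of 7 tested, 6 rose and 1 fell from wt ActB to wt PB, where 31% of all genes rose and 31% fell, with the same counts under each of the 3 other scalings. Ccpg1 rose from 11.8 to 138 FPKM (log2 change 3.45, SE 0.13), Sec62 from 20.0 to 71.0 (1.78), Calcoco1 from 15.1 to 37.3 (1.25) and Fam134b, which has a reticulon fold, from 23.0 to 50.2 (1.09). Its relative Fam134c fell from 61.3 to 30.6 FPKM (-0.97). In ko against wt, limma called 0 of the 7 in any population, and 1, 2 and 1 had an unadjusted p below 0.05, where 8.07%, 15% and 16% of all genes had one.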

How the data were processed

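Per the labels' protocols, RNA was extracted on RNeasy columns, selected with oligo-dT and made into stranded TruSeq libraries. The authors deposited 1 table of FPKM values per library. The submitters' processing notes name the mm9 build, Cuffnorm 2.2.1, Cuffdiff, Cufflinks 2.2.1, TopHat2 2.0.14 and bcl2fastq (0.3.1 and 2.17.1.14), while annotation, library scaling and filters are not given in the sources used here. The files hold no counts, so depth is unknown and no counting interval was computed.

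Genes that reached 1 FPKM in 2 or more libraries were tested as log2(FPKM + 1) with limma 3.58.1 (limma-trend, R 4.3.3) and 1 coefficient per group, which left 6 residual degrees of freedom (prior 4.49). Tests were two-sided, with Benjamini-Hochberg adjustment over all genes in each of 12 comparisons. These were ko against wt, the steps within each genotype, and interactions. SE is that of the log2 change, SD that of 2 libraries. Folds are ratios of mean FPKM, and folds from log2(FPKM + 1) would understate changes of low genes.

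The 10 genes and all gene lists were chosen with earlier results of these data known. From each list up to 4 called genes with the lowest p in wt PB against wt ActB were named, and Fam134c was added after its value was seen. For likeness the 5 highest and 3 lowest Pearson r were named. Markers of dendritic, natural killer and erythroid cells summed to at most 1.57, 6.01 and 0.167 FPKM. The natural killer sum was at most 0.0238 in wt ActB and 5.15 to 6.01 in wt PB. Of 8 mitosis genes 3 rose and 0 fell in wt PB against wt ActB (0 and 4 with equal totals). Promoters came from RefSeq GRCm38.p6, and the same release gave gene neighbours by order alone. The alternatives were other filters, pseudocounts, scalings, blocks and left-out libraries. The fit was tested on simulated data. Figures used matplotlib 3.10.9 in Python 3.11.15.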

Additional observations from a re-analysis of the deposited data

How the results depend on the processing

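The log2 change of Reep5 in ko against wt stayed between 0.50 and 0.82 in ActB, 0.94 and 1.09 in PrePB, and 0.92 and 1.10 in PB over the alternatives run, and was called in 3 of 24, 22 of 24 and 21 of 23 of them. The number of members called in ko against wt moved from 0 to 1 in ActB with quantile normalization and with equal totals without small RNA genes. In PB it moved from 1 to 0 with the compared groups alone and with the fragment pattern as a term, and in PrePB from 1 to 0 with fragment pattern A alone. Leaving out single libraries gave 0 to 1 members in ActB and 0 to 1 in PrePB. For PB against PrePB in wt, the 2 members called became 1 with no filter, with equal totals and with pattern A alone, 0 without wt replicate 1 in all populations, and 0 to 2 without single libraries. In ko the 3 members became 1 with equal totals, with the compared groups alone and with the pattern term, and 0 to 3 without single libraries. The ko call of Reep5 in PB against PrePB was also lost with no filter (0.43) and with quantile normalization (0.27). With equal totals without small RNA genes (chosen after seeing the data), 2 members were called higher in that ko step and 1 lower, Arl6ip1 (-0.40). Rtn4 in PB against ActB turned to -0.0687 in ko with equal totals. With equal totals without small RNA genes Rtn4 was at -0.0749 in ko and -0.23 in wt, there called lower. Rescaling multiplies all genes of a library by the same factor. With equal totals the median of all genes in PB against ActB moved from -0.01 to -0.37 in wt and from -0.01 to -0.27 in ko. The cause of the other shifts was not tested. Genes called in all for ko against wt in PB numbered 45, against 8 with the compared groups alone, 4 with the pattern term, 11 without wt PB replicate 1 or replicate 2, 10 without ko PB replicate 1, and 28 without wt PrePB replicate 1 or replicate 2. In ActB the 6 genes became 3 without ko ActB replicate 1. In PrePB the 13 became 25 without ko ActB replicate 1 or replicate 2, 7 without wt PrePB replicate 1, wt PrePB replicate 2 or ko PrePB replicate 1, and 8 without ko PrePB replicate 2. For PB against PrePB in wt the 966 became 382 and 364 without wt PrePB replicate 1 and replicate 2, and 418 and 248 without wt PB replicate 1 and replicate 2. In ko the 1196 became 383 and 632 without ko PrePB replicate 1 and replicate 2, and 377 without ko PB replicate 2. The interactions against ActB had 4 genes (PrePB) and 5 (PB) called, and 1 to 10 without single libraries.

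The labels do not say that a replicate number marks a shared animal or culture. Deviations of the same number in wt and ko correlated at -0.11, -0.08 and -0.05. Between populations they correlated at 0.05 to 0.32 in wt, where Xist was high in replicate 1 of each population, and at 0.10 to 0.29 in ko, so a shared source within a genotype is not settled. With the replicate block the log2 change of Reep5 was 0.66, 1.00 and 1.00 as before (adjusted p = 0.0915, 0.00551 and 0.00546). The block raised the genes called in PB against PrePB from 966 to 1558 in wt, where Atl2 was then called (0.30), and from 1196 to 1743 in ko, where Arl6ip1 was then called lower (-0.25). Arl6ip1 was also called higher in PrePB against ActB in ko (0.19). No other call of the 10 genes changed with the block.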

Other observations

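Genes that join the ER to other membranes included 11 contact site genes that were tested. From wt ActB to wt PB 6 rose and 2 fell, where 31% of all genes rose and 31% fell. Mospd1 rose from 3.16 to 18.2 FPKM (5.75-fold) and the calcium sensor Stim1 from 21.3 to 36.0 (log2 change 0.73), and the tether Esyt1 fell from 184 to 103 FPKM (-0.82). Rescaled to equal totals 3 rose and 4 fell, where 2066 of 11069 genes rose and 5487 fell.

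Enzymes of phospholipid synthesis, which supplies new ER membrane, rose in 10 of 18 cases and fell in 1, against the same shares of all genes. Pcyt1a, the regulated enzyme of phosphatidylcholine synthesis, rose from 8.90 to 22.7 FPKM (1.26, SE 0.09), and Cdipt, which makes phosphatidylinositol, from 46.1 to 80.4 (0.79). Rescaled to equal totals 5 rose and 3 fell. In ko against wt, limma called 0 genes of either list in any population. At an unadjusted p below 0.05 there were 0, 2 and 0 contact site genes and 2, 4 and 2 phospholipid genes in ActB, PrePB and PB, where 8.07%, 15% and 16% of all genes had one.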
